A study of Homo sapiens with 9 samples.

Results

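Chemokines and chemokine receptors were examined in VCaP cells, a human line established from a prostate cancer, which expresses the androgen receptor and carries the TMPRSS2-ERG fusion. The 9 genes described are the receptors ACKR3 and CXCR4 and the ligands CXCL16, CX3CL1, CXCL11, CXCL10, CXCL12, CXCL8 and CCL2, taken by symbol from a table of 60612 genes. They were chosen with results of these data in view, partly from their own levels, so their values and fold changes are given as a description, without p-values. RNA was sequenced from cells transfected for 4 days with KMT2C siRNA 1, with KMT2C siRNA 2 or with a control siRNA, 3 libraries per group. All groups are the same line grown in serum, and the control cells received an siRNA too. KMT2C encodes a histone H3 lysine 4 methyltransferase. Each group is a transient knockdown in 1 cell line, so nothing is measured of the immune or stromal cells that chemokines act on in a tumour. The labels do not say if the replicates are independent cultures. All p-values below therefore measure just the spread among libraries, which may be technical.

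Chemokines are small secreted or membrane-anchored proteins that guide migrating cells through G protein-coupled receptors. Conventional receptors such as CXCR4 signal through G proteins, whereas the atypical receptor ACKR3, also called CXCR7, recruits arrestins, does not couple to G proteins in the usual way, and takes up its ligands CXCL12 and CXCL11. CXCL10 and CXCL11 are interferon-induced ligands of CXCR3 that attract T cells, CCL2 attracts monocytes through CCR2, and CXCL8 attracts neutrophils through CXCR1 and CXCR2. In prostate cancer cells ACKR3 is known as a gene that androgen represses.

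CXCL11 and CXCL10 lie side by side on the minus strand of chromosome 4, 17.9 kb apart between their deposited starts, and moved apart in these cells. The sequences before their RefSeq starts are therefore shown. They are the 250 bases upstream of the RefSeq transcript start on GRCh38.p14, minus strand, for CXCL11 at chr4:76036071-76036320 and for CXCL10 at chr4:76023498-76023747. Both are written 5′ to 3′. Capitals mark matches, on either strand, to the interferon-type element GAAANNGAAA, to the kappaB consensus or to TATAAA.
CXCL11: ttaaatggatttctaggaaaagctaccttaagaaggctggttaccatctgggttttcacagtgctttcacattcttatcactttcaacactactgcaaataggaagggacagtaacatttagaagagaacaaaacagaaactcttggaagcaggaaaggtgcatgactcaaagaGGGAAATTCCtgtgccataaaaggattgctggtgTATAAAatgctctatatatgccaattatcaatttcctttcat
CXCL10: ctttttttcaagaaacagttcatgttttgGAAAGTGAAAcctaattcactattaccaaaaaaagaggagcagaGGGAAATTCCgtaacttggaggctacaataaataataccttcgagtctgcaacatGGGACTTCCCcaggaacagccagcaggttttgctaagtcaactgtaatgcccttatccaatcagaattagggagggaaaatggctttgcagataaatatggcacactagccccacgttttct
The CXCL10 stretch held GAAAGTGAAA at -221 to -212 from the start and kappaB matches at -177 to -168 (GGGAAATTCC) and at -122 to -113 (GGGACTTCCC), the second of them on both strands. The CXCL11 stretch held the same 10-base kappaB match, GGGAAATTCC, at -76 to -67, and TATAAA at -42 to -37, but not the letters GAAANNGAAA. It also held AGAACA, a half-site of the androgen receptor element, at -125 to -120. Over 35116 RefSeq promoters of this length, 3.02% held GAAANNGAAA, 9.96% a kappaB match, 10.7% TATAAA and 12.4% AGAACA on either strand. Such matches are letters in a window, not measured binding. Interferon-type elements with other spacings were not searched, so a stretch without GAAANNGAAA may still hold one. The deposited CXCL11 gene begins further upstream, at 76041415, so the window precedes the RefSeq start and not the deposited one. Promoters of CXCR4, CXCL12 and CXCL8 were in the same table. ACKR3, CCL2, CXCL16 and CX3CL1 had no entry.

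**Figure D1:**
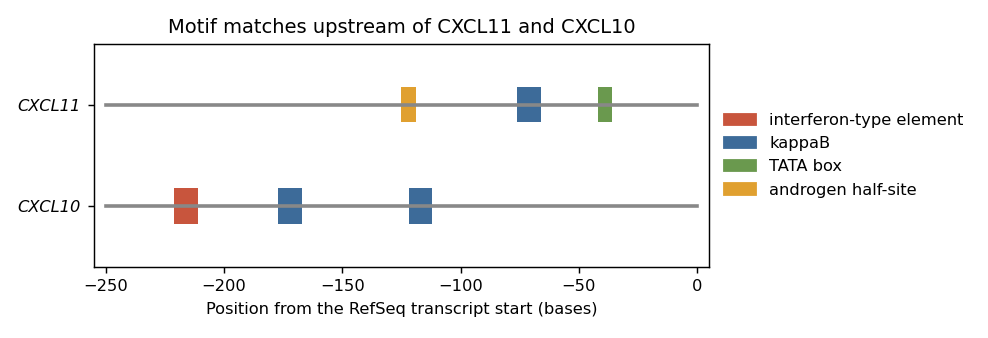
Motif matches in the 250 bases before the RefSeq transcript starts of CXCL11 (top line) and CXCL10 (bottom line), with the distance from the start in bases on the horizontal axis. Each box is 1 match on either strand, coloured by motif. Both genes have a kappaB match, at -76 to -67 in CXCL11 and at -177 to -168 and -122 to -113 in CXCL10. The letters GAAANNGAAA stand before CXCL10 at -221 to -212, and other spacings were not searched.

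Library totals were 58462215 to 70726213 estimated counts. Mitochondrial genes took 8.25 to 9.61% of them with siRNA 1, 12 to 12.2% with siRNA 2 and 10.2 to 11.1% with control siRNA. KMT2C, the targeted gene (chromosome 7, 152134922 to 152436003), was at 1.54, 1.80 and 2.28 FPKM with siRNA 1 and 1.72, 1.64 and 1.73 FPKM with siRNA 2, against 13.7, 12.1 and 12.9 FPKM with control siRNA. FPKM is fragments per kilobase of transcript, scaled for depth. KMT2C fell with both (log2 fold change -2.81 ± 0.13 and -2.98 ± 0.13, ± SE), and its exons overlap the pseudogene FABP5P3. The Benjamini-Hochberg adjusted p of edgeR's quasi-likelihood test was 4.56e-06 and 8.76e-07. The exact 2-sided permutation p was 0.1 for each siRNA, the smallest that 20 splits of 3 against 3 allow. All 9 luminal prostate markers were expressed. Their summed level was 839 to 856 FPKM with siRNA 1 and 842 to 861 FPKM with siRNA 2, against 1640 to 1730 FPKM with control siRNA. Of 6 leukocyte markers 2 had no count in any library and 4 stayed under 0.1 FPKM, with a sum of 1.58 to 1.95, 1.49 to 2.52 and 0.655 to 1.41 FPKM in the 3 groups in that order, nearly all of it CD14 and LYZ. Of 4 endothelial markers 2 stayed under 0.1 FPKM in every library. Fibroblast markers summed to 0.691 to 0.927 FPKM with siRNA 1, 7.16 to 12.6 FPKM with siRNA 2 and 1.58 to 2.65 FPKM with control siRNA. The siRNA 2 sum was mostly the proteoglycan gene LUM, at 10.2, 7.04 and 12 FPKM. The word retinal stands in the series' design text and in no sample label, and 3 of 5 photoreceptor markers, CRX among them, had no count in any library. In bulk RNA, fewer cells making a transcript and less transcript per cell cannot be told apart.

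In control cells this family was dominated by 1 receptor and 1 ligand. ACKR3 averaged 125 ± 26.6 FPKM (SD, n = 3) and took 99.3 to 99.7% of the FPKM summed over 23 receptor genes. CXCL16 averaged 9.81 ± 1.14 FPKM and took 71.0 to 75.5% of the FPKM summed over 46 ligand genes. Below them in control cells came CCL2, CXCL10, CXCL8, CXCL11, CXCR4, CX3CL1 and CXCL12, in that order of mean FPKM. The library ranges of CCL2 and CXCL10 overlapped there, as did those of CXCR4, CX3CL1 and CXCL12. With either siRNA the order began ACKR3, CXCL16, CXCL11, none of which overlapped its neighbour, so that CXCL11 stood in the third place in knockdown cells and in the sixth in control cells. Of all 46 ligand genes 23 had no count in any library and 38 stayed under 0.1 FPKM in every group mean, and of 23 receptor genes 5 had no count and 20 stayed under 0.1 FPKM. CXCR3, the receptor of CXCL10 and CXCL11, was among those without a count.

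**Figure D2:**
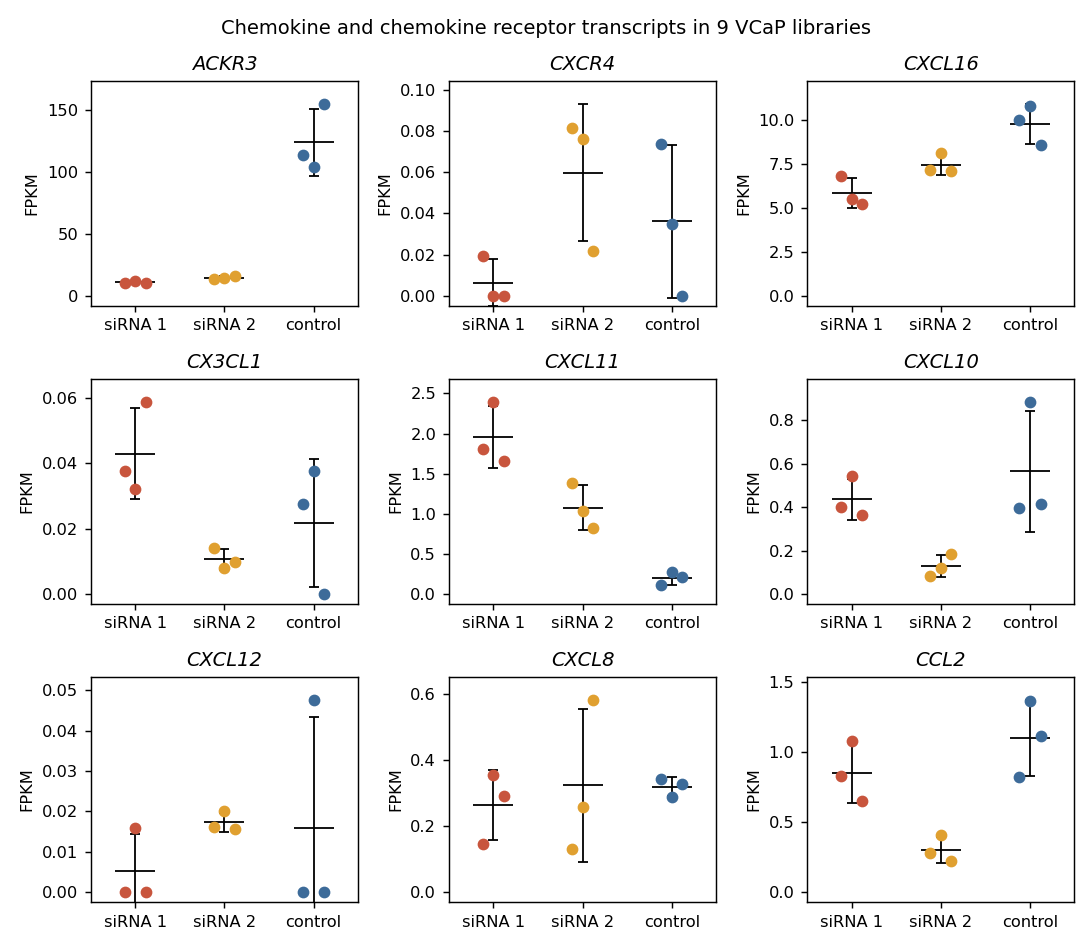
FPKM of the 9 genes in each library, 1 panel per gene with its own scale, for KMT2C siRNA 1, KMT2C siRNA 2 and control siRNA from left to right. Points are libraries, horizontal lines are group means and error bars are 1 SD (n = 3), and libraries without a count are drawn at 0. ACKR3 lies between 10.2 and 16.2 FPKM in the knockdown libraries and between 104 and 155 FPKM in the control libraries, while CXCL11 lies above every control library in all 6 knockdown libraries.

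ACKR3 (ENSG00000144476, chromosome 2, 236567787 to 236582354, plus strand) had 10.7, 12 and 10.2 FPKM with siRNA 1 and 14.1, 14.5 and 16.2 FPKM with siRNA 2, against 114, 104 and 155 FPKM with control siRNA. Every knockdown library was far below every control library, and the siRNA 1 libraries were all below the siRNA 2 libraries. The means left 8.80% of the control level with siRNA 1 and 12% with siRNA 2. Log2 fold changes against control were -3.53 ± 0.16 (siRNA 1) and -3.12 ± 0.16 (siRNA 2). The siRNAs differed by -0.42 ± 0.15, with -0.48 to -0.35 over 19 analyses. ACKR3 remained the most abundant receptor transcript, with 92.4 to 93.5% of receptor FPKM with siRNA 1 and 94.2 to 94.8% with siRNA 2. Its counts, 1594 to 26870 per library, make counting error small beside the spread between libraries. The luminal marker sum given above was also lower with both siRNAs, and its part in the ACKR3 difference was not tested.

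CXCR4 (ENSG00000121966, chromosome 2, 136114349 to 136118149, minus strand), which shares CXCL12 with ACKR3 and guides cells to bone marrow, was close to the limit of detection. It had 0.0196, 0 and 0 FPKM with siRNA 1 and 0.0816, 0.0763 and 0.0217 FPKM with siRNA 2, against 0.0738, 0.0347 and 0 FPKM with control siRNA. These levels rest on 4, 33 and 19 estimated counts per group, and about 4 counts stand for 1 sequenced fragment, since low values pile up at 4, 8 and 12. The ratio to control was 0.205 with siRNA 1 (95% exact counting interval 0.00411 to 1.74) and 1.66 with siRNA 2 (0.440 to 5.93), so a difference from control was not detectable at this depth. The siRNA 1 libraries lay just below the siRNA 2 libraries, with a ratio of 0.123 (0.00287 to 0.95) on 4 and 33 counts. The counting intervals here and below cover counting error only.

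Of the ligands, CXCL16 (ENSG00000161921, chromosome 17, 4733531 to 4739928, minus strand) was the most abundant. It encodes a membrane-anchored chemokine that ADAM10 sheds and that binds CXCR6. It had 6.84, 5.54 and 5.21 FPKM with siRNA 1 and 7.14, 8.15 and 7.09 FPKM with siRNA 2, against 10.0, 10.8 and 8.58 FPKM with control siRNA. All knockdown libraries lay below all control libraries, and the 2 siRNAs did not overlap each other. On the log2 scale the fold change was -0.76 ± 0.13 for siRNA 1 and -0.45 ± 0.13 for siRNA 2. Over 19 analyses these ranged from -0.9 to -0.66 and from -0.53 to -0.35. CXCL16 shares exon sequence on the opposite strand with MED11, a Mediator subunit gene that rose by 1.48 ± 0.28 and 0.95 ± 0.28 (adjusted p = 0.00313 and 0.0198, edgeR). Whether the counting used strand is not given in the sources used here, so reads of the shared stretch cannot be told apart. CXCR6, its receptor, chosen for that pairing after its values were seen, had 0.457, 0.549 and 0.385 FPKM with siRNA 1 and 0.442, 0.400 and 0.464 FPKM with siRNA 2, against 0.480, 0.261 and 0.342 FPKM with control siRNA, and the groups overlapped.

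CX3CL1 (ENSG00000006210, chromosome 16, 57372477 to 57385044, plus strand), the other membrane-anchored chemokine, which ADAM17 and ADAM10 shed and which binds CX3CR1, was hardly detected. It had 0.0377, 0.0322 and 0.0586 FPKM with siRNA 1 and 0.0141, 0.00793 and 0.00981 FPKM with siRNA 2, against 0.0274, 0.0377 and 0 FPKM with control siRNA. The siRNA 1 libraries were all above the siRNA 2 libraries, and each siRNA overlapped control. The summed counts were 62, 16 and 30. The ratio was 2.01 for siRNA 1 over control (0.785 to 5.25), 0.509 for siRNA 2 over control (0.105 to 1.78) and 3.95 for siRNA 1 over siRNA 2 (1.31 to 16.7, exact counting intervals).

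CXCL11 (ENSG00000169248, chromosome 4, 76033682 to 76041415, minus strand), whose upstream stretch is printed above, was the member that was higher with both siRNAs. It had 1.81, 2.39 and 1.66 FPKM with siRNA 1 and 1.38, 1.03 and 0.821 FPKM with siRNA 2, against 0.114, 0.270 and 0.211 FPKM with control siRNA. No libraries of different groups overlapped, with siRNA 1 highest and control lowest. The means were 9.83-fold and 5.43-fold those of control. Log2 fold changes were 3.22 ± 0.34 and 2.34 ± 0.34, and siRNA 1 stood 0.88 ± 0.31 above siRNA 2 on that scale. The level stayed low, resting on 115 to 334 counts per knockdown library and 15 to 39 per control library. CD14 was higher with both siRNAs as well, by 1.49 ± 0.28 and 1.46 ± 0.28 on the log2 scale. It met the filter through 3 siRNA 1 and 3 siRNA 2 libraries and no control library. LYZ, another leukocyte marker, had -0.52 ± 0.69 and -0.06 ± 0.69 in a fit of all genes with a count. The pan-leukocyte gene PTPRC had at most 0.0208 FPKM in any library. The part of other cells in the CXCL11 difference was not tested.

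CXCL10 (ENSG00000169245, chromosome 4, 76021118 to 76023497, minus strand) did not follow its neighbour. It had 0.401, 0.544 and 0.364 FPKM with siRNA 1 and 0.0814, 0.121 and 0.184 FPKM with siRNA 2, against 0.395, 0.883 and 0.415 FPKM with control siRNA. The siRNA 1 libraries overlapped control, and the siRNA 2 libraries lay below all others. The summed counts were 123, 38 and 157, with a ratio to control of 0.761 (0.466 to 1.27) with siRNA 1 and 0.231 (0.109 to 0.499) with siRNA 2. It reached 1 FPKM in no library and so was not among the genes tested. In a fit of all genes with a count, its log2 fold change was -0.37 ± 0.47 and -2.13 ± 0.50. The FPKM ratio of CXCL11 to CXCL10 was 4.51, 4.39 and 4.58 with siRNA 1 and 17, 8.55 and 4.45 with siRNA 2, against 0.290, 0.306 and 0.508 with control siRNA. Thus CXCL11 exceeded CXCL10 in all 6 knockdown libraries and CXCL10 exceeded CXCL11 in all 3 control libraries. CXCL9, the remaining CXCR3 ligand, had 34, 52 and 14 counts in the 3 groups, with ratios to control of 2.36 (0.521 to 8.82) and 3.54 (0.958 to 13.1).

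Expressed genes within 250 kb of CXCL11, chosen by position after the values were seen, had smaller log2 fold changes of both signs, apart from the read-through gene named last. SDAD1, 50.5 kb downstream, whose yeast relative acts in ribosome maturation, rose by 0.35 ± 0.07 and 0.55 ± 0.07 (adjusted p = 0.00315 and 1.63e-04, edgeR). NAAA, a lysosomal amidase gene 100.4 kb downstream, rose by 0.55 ± 0.07 with siRNA 1 (adjusted p = 5.37e-04) and had -0.12 ± 0.07 with siRNA 2 (adjusted p = 0.217). On the other side the nucleoporin gene NUP54 had -0.12 ± 0.14 with siRNA 1 (adjusted p = 0.539) and fell by 0.53 ± 0.14 with siRNA 2 (adjusted p = 0.0118). SCARB2, a lysosomal membrane protein gene, fell (log2 fold change -0.97 ± 0.32 and -0.92 ± 0.32, adjusted p = 0.0411 and 0.0419), and FAM47E fell too (-0.74 ± 0.18 and -0.60 ± 0.18, adjusted p = 0.0101 and 0.0204). FAM47E shares reads with the read-through gene FAM47E-STBD1, which had -7.15 ± 1.86 (adjusted p = 0.0144) and -2.18 ± 1.39 (adjusted p = 0.228), so the split between them is uncertain.

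**Figure D3:**
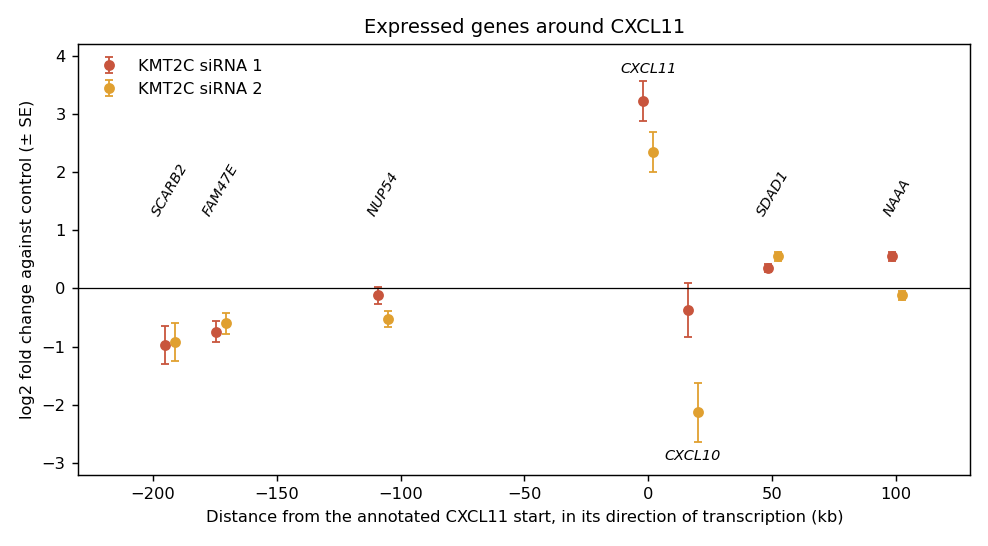
Log2 fold change against control (± SE) of CXCL11 and of genes around it, for KMT2C siRNA 1 (red) and KMT2C siRNA 2 (yellow). Distance is in kb from the deposited CXCL11 start, in its direction of transcription. The read-through gene FAM47E-STBD1 is left out, and CXCL10 is taken from the fit of all genes with a count. CXCL11 stands at 3.22 and 2.34, CXCL10 beside it at -0.37 and -2.13, and the other genes between -0.97 and 0.55.

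CXCL12 (ENSG00000107562, chromosome 10, 44370165 to 44385092, minus strand), the stromal ligand of both receptors above, was barely detected. It had 0, 0.0158 and 0 FPKM with siRNA 1 and 0.0162, 0.0201 and 0.0157 FPKM with siRNA 2, against 0, 0.0475 and 0 FPKM with control siRNA. All 24 control counts came from 1 library. The ratio to control was 0.324 (0.0320 to 1.81) with siRNA 1 and 1.03 (0.255 to 3.57) with siRNA 2, and no difference was detectable at this depth.

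CXCL8 (ENSG00000169429, chromosome 4, 73740541 to 73743716, plus strand) had 0.147, 0.355 and 0.293 FPKM with siRNA 1 and 0.132, 0.260 and 0.582 FPKM with siRNA 2, against 0.345, 0.290 and 0.327 FPKM with control siRNA. Both siRNAs overlapped control, and the siRNA 2 libraries held both the lowest and the highest value. The ratio to control was 0.812 (0.519 to 1.33) and 0.982 (0.640 to 1.56). On the log2 scale, in the fit of all genes with a count, it was -0.29 ± 0.53 and -0.06 ± 0.53, intervals too wide to say that the level did not change.

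CCL2 (ENSG00000108691, chromosome 17, 34255218 to 34257203, plus strand) separated the 2 siRNAs. It had 0.825, 1.08 and 0.650 FPKM with siRNA 1 and 0.283, 0.406 and 0.223 FPKM with siRNA 2, against 0.822, 1.36 and 1.11 FPKM with control siRNA. The siRNA 2 libraries lay below all others, and the siRNA 1 libraries overlapped control. The means were 77.6% of control with siRNA 1 and 27.7% with siRNA 2. These levels rest on 99 to 170 counts per library with siRNA 1, 37 to 66 with siRNA 2 and 115 to 217 with control siRNA. About 4 counts stand for 1 fragment. Log2 fold changes were -0.39 ± 0.29 for siRNA 1 and -1.87 ± 0.31 for siRNA 2, and the 2 differed by 1.48 ± 0.31. CXCL10 had the same order of group means. CCR2, the receptor of CCL2, had 27, 41 and 57 counts in the 3 groups.

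Over all members, 4 of 9 had at least 1 FPKM in at least 3 libraries and so were tested, ACKR3, CXCL16, CXCL11 and CCL2. CXCL11 met this through 3 siRNA 1 and 2 siRNA 2 libraries and no control library, and CCL2 through 1 siRNA 1 and 2 control libraries. Of the 4, 3 were called with siRNA 1 (1 higher, 2 lower), against 41.7% of the 12830 genes tested, and 4 with siRNA 2 (1 higher, 3 lower), against 49.3%. Between the siRNAs CCL2 was called, higher with siRNA 1, against 39.5% of genes tested called and 20.6% called higher. The library ranges did not overlap for 3 of 9 members with siRNA 1 (53.1% of genes tested), for 5 with siRNA 2 (62.8%) and for 7 between the siRNAs (52.3%). The shares cover only genes past the filter, which 4 of the 9 members passed, so counts and shares are not like for like. Since these contrasts served to choose the members, nothing is read from these calls or their counts. Both siRNAs were set against the same 3 control libraries.

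The sum over ligand genes differed between the groups by less than its SD in control cells, while its make-up shifted. It was 12.6 ± 0.458 FPKM with siRNA 1, 11.8 ± 0.231 FPKM with siRNA 2 and 13.4 ± 1.75 FPKM with control siRNA (SD, n = 3). The share of CXCL16 was 42.4 to 53.9% with siRNA 1 and 60.8 to 67.6% with siRNA 2, against 71.0 to 75.5% with control siRNA. That of CXCL11 was 13.7 to 18.3% and 7.04 to 11.9%, against 0.861 to 1.80%. Of the other 60 chemokine and receptor genes in the table, CCL28 alone passed the filter on low values. This mucosal chemokine, a ligand of CCR10 and CCR3, had 1.82, 2.29 and 2.17 FPKM with siRNA 1 and 1.88, 1.82 and 2.23 FPKM with siRNA 2, against 1.15, 1.31 and 1.03 FPKM with control siRNA. It rose by 0.82 ± 0.14 and 0.71 ± 0.14 on the log2 scale (adjusted p = 0.00210 and 0.00323, edgeR), higher in 6 of 6 knockdown libraries. Its share of ligand FPKM was 14.3 to 17.9% and 15.1 to 19.1%, against 8.61 to 8.78% with control siRNA.

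**Figure D4:**
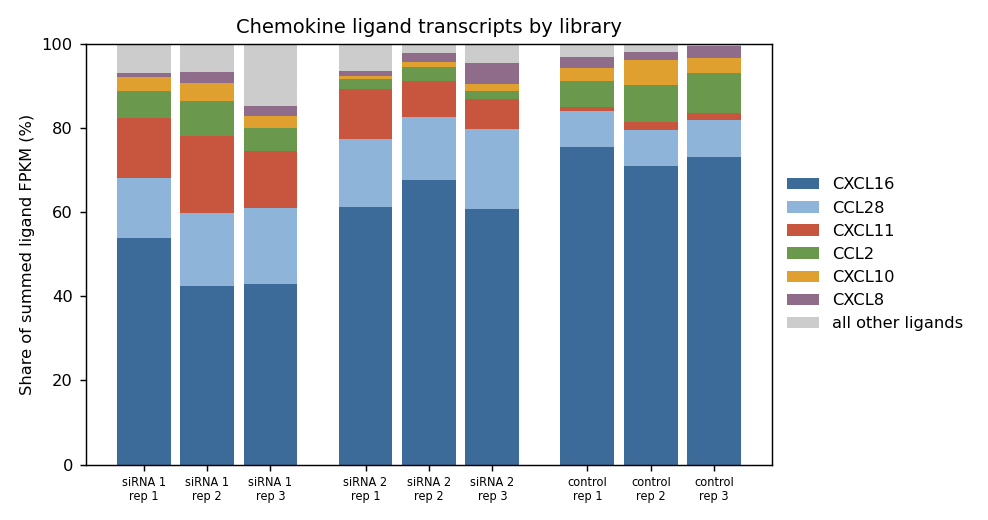
Share of the FPKM summed over 46 chemokine ligand genes, in percent, in each library, with siRNA 1, siRNA 2 and control libraries from left to right. Colours are the ligands CXCL16, CCL28, CXCL11, CCL2, CXCL10 and CXCL8, and grey is the sum of the rest. CXCL16 takes 42.4 to 67.6% in knockdown libraries and 71.0 to 75.5% in control libraries, and CXCL11 takes 7.04 to 18.3% in knockdown libraries and 0.861 to 1.80% in control libraries.

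Genes known to act with the chemokines were taken as 5 lists, chosen with earlier results of these data known and described by counts beside the shares of all genes given above. Across all genes tested, 21.2% were called higher and 20.5% lower with siRNA 1, and 24.4% and 24.9% with siRNA 2. The median log2 fold change of all genes was 0.01 and 0.02. Among other ligands of these receptors, 3 were tested. ADM, adrenomedullin, a peptide that ACKR3 takes up, had 1.49, 1.83 and 1.65 FPKM with siRNA 1 and 4.50, 3.75 and 3.18 FPKM with siRNA 2, against 8.03, 6.49 and 7.69 FPKM with control siRNA. Its log2 fold change was -2.17 ± 0.16 (adjusted p = 2.30e-05) and -1.01 ± 0.15 (adjusted p = 6.01e-04), with no overlap between groups. MIF and HMGB1 made up the list, and MIF fell with siRNA 2 by 0.30 ± 0.10 (adjusted p = 0.0283), with 0.11 ± 0.10 for siRNA 1.

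Of the genes that process ligands, 3 were tested. ADAM17, the shedding protease, had 1.19, 1.27 and 1.31 FPKM with siRNA 1 and 2.49, 2.37 and 2.88 FPKM with siRNA 2, against 2.44, 2.63 and 2.55 FPKM with control siRNA. It fell with siRNA 1 by 1.04 ± 0.10 (adjusted p = 8.39e-05) and had -0.03 ± 0.09 with siRNA 2 (adjusted p = 0.794). DPP4, which trims CXCL10, CXCL11 and CXCL12, had 9.37, 10.9 and 13.3 FPKM with siRNA 1 and 18.6, 16.9 and 21.1 FPKM with siRNA 2, against 12.1, 11 and 12.3 FPKM with control siRNA. It had -0.10 ± 0.13 on the log2 scale with siRNA 1 (adjusted p = 0.556) and rose with siRNA 2 by 0.62 ± 0.13 (adjusted p = 0.00386). ADAM17 and DPP4 each share exon sequence with a gene on the opposite strand.

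In receptor signalling 11 genes were tested, of which 3 rose and 3 fell with siRNA 1 and 4 rose and 5 fell with siRNA 2, with a median of -0.04 in both. ARRB2, an arrestin that ACKR3 recruits, rose by 0.46 ± 0.11 with each siRNA (adjusted p = 0.00918 and 0.00766). Its level was 7.59, 7.51 and 6.09 FPKM with siRNA 1 and 7.47, 6.72 and 7.40 FPKM with siRNA 2, against 4.87, 5.42 and 4.82 FPKM with control siRNA. ARRB1, the other arrestin on the list, had -0.52 ± 0.18 with siRNA 1 (adjusted p = 0.0517) and fell with siRNA 2 by 1.37 ± 0.19 (adjusted p = 3.82e-04). With siRNA 1 it was called lower in 4 of 18 alternative analyses. In edgeR these were RLE scaling (adjusted p = 0.0482), the replicate block (0.0254) and leaving out control replicate 2 (0.0193). The remaining one was DESeq2's Wald test (adjusted p = 0.0189). GNAI1, an inhibitory G protein subunit, rose by 0.58 ± 0.12 and 0.56 ± 0.12 (adjusted p = 0.00434 and 0.00396). GRK3, a kinase that marks active receptors for arrestin, fell (log2 fold change -0.36 ± 0.09 and -1.23 ± 0.09, adjusted p = 0.0114 and 1.02e-05). GNB2, a G protein beta subunit, fell (log2 fold change -0.41 ± 0.08 and -0.26 ± 0.08, adjusted p = 0.00429 and 0.0290), but the call with siRNA 2 was lost in 9 of 18 alternative analyses. These include leaving out any siRNA 2 replicate (adjusted p = 0.0528 to 0.0920) or control replicate 2 or 3 (adjusted p = 0.0737 and 0.0844). GRK2, the close relative of GRK3, moved in opposite directions, higher by 0.22 ± 0.05 with siRNA 1 (adjusted p = 0.0109) and at -0.29 ± 0.05 with siRNA 2 (adjusted p = 0.00200).

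Genes that carry interferon signals to CXCL10 and CXCL11 moved down or did not pass the test. Of 12 tested, 6 fell with siRNA 1 and 7 with siRNA 2, none was called higher with either, and 5 fell with both. The medians were -0.34 and -0.59. IRF1, a transcription factor that binds the interferon-type element, had 1.36, 1.47 and 1.24 FPKM with siRNA 1 and 1.25, 1.34 and 0.914 FPKM with siRNA 2, against 3.89, 3.72 and 4.41 FPKM with control siRNA. It fell (log2 fold change -1.59 ± 0.15 and -1.83 ± 0.15, adjusted p = 9.25e-05 and 2.02e-05). The interferon gamma receptor chain gene IFNGR2 fell (log2 fold change -0.63 ± 0.09 and -1.41 ± 0.09, adjusted p = 6.96e-04 and 5.54e-06) and IFNGR1 likewise (-0.41 ± 0.10 and -0.97 ± 0.10, adjusted p = 0.0118 and 8.32e-05). IRF9, a DNA-binding subunit of the factor that type I interferon activates, fell (log2 fold change -0.64 ± 0.19 and -0.62 ± 0.19, adjusted p = 0.0277 and 0.0266). The IRF9 call was lost in 5 of 18 alternative analyses with each siRNA, among them without control replicate 1 or 2, siRNA 1 replicate 2 or 3, and siRNA 2 replicate 1 or 3 (adjusted p = 0.0545 to 0.0871). Exons of IFNGR2, IRF1 and IRF9 overlap those of other annotated genes. CXCL11 was thus higher in the same libraries in which these genes were lower, a description of these libraries only.

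NF-kappaB is the route by which tumour necrosis factor and interleukin 1 induce CXCL8 and CCL2. Of 12 tested genes that carry its signals, 3 fell with siRNA 1 (20.5% of all genes tested fell) and 4 with siRNA 2 (24.9%). None was called higher. The medians were 0.04 and -0.12. IKBKB, the kinase that releases NF-kappaB, had 1.51, 1.56 and 1.41 FPKM with siRNA 1 and 1.76, 2.02 and 1.95 FPKM with siRNA 2, against 2.71, 2.84 and 3.58 FPKM with control siRNA. It fell (log2 fold change -1.05 ± 0.12 and -0.73 ± 0.12, adjusted p = 2.61e-04 and 0.00116). MYD88, the adaptor of Toll-like and interleukin 1 receptors, fell (log2 fold change -0.84 ± 0.14 and -0.89 ± 0.14, adjusted p = 0.00190 and 9.99e-04). TNFRSF1A and TNFAIP3, also on the list, were under the filter and not tested. In the fit of all genes with a count, TNFRSF1A had 1.85 ± 0.55 and 1.35 ± 0.55. TNFAIP3 had -1.64 ± 0.23 and -0.58 ± 0.23 there. Of the 12 tested genes of this list, 2 were called lower with both siRNAs. The share of all tested genes called lower with both siRNAs was 12.6%, and 13.2% were called higher with both.

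**Figure D5:**
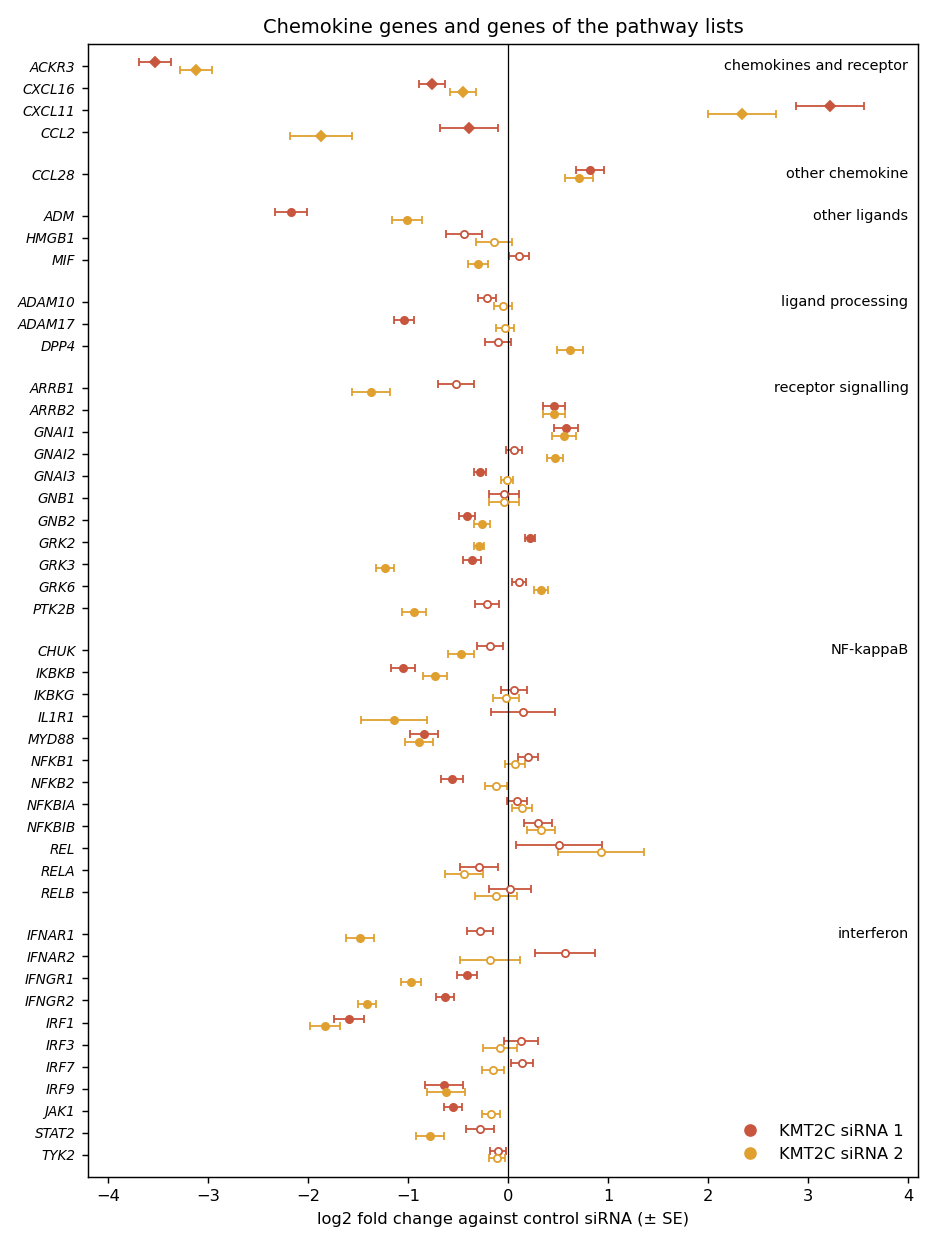
Log2 fold change against control siRNA (± SE, edgeR) for KMT2C siRNA 1 (red, upper point of each gene) and KMT2C siRNA 2 (yellow, lower point). Diamonds are the 4 chemokine and receptor genes given as a description, filled circles are other genes that passed the test and open circles genes that did not, with 1 gene of the interferon list not shown. ACKR3 lies at -3.53 and -3.12 and CXCL11 at 3.22 and 2.34, outside the range of the list genes, and no filled circle of the interferon and NF-kappaB lists lies right of 0.

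Genes named by a clone or assembly identifier were left out of the following ranking and of its counts of genes over 0.95. Among the rest, those whose log2 CPM (counts relative to library size) followed a member most closely over the 9 libraries were named by Pearson's r. This is a description, since all 9 libraries fall into the same 3 groups. For ACKR3 the closest were GRHL1, an epithelial transcription factor gene (r = 0.998), NDUFB4, of respiratory complex I (r = 0.996), and LTN1, a ubiquitin ligase of stalled ribosomes (r = 0.994), and 239 genes exceeded 0.95. Their own changes were smaller than that of ACKR3, -1.27 and -1.12 for GRHL1, -1.12 and -0.97 for NDUFB4, and -1.87 and -1.66 for LTN1. For CXCL11 they were AZIN1 (r = 0.988), HSDL2 (r = 0.986) and TMPO-AS1 (r = 0.986), with 77 genes over 0.95. For CCL2 they were LRRC75B (r = 0.980), TRIM68 (r = 0.973) and KHDRBS3 (r = 0.973), with 34 over 0.95. For CXCL16 they were PPM1A (r = 0.976), ARFGAP3 (r = 0.966) and HES6 (r = 0.965), with 10 over 0.95.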

How the data were processed

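All values came from 1 deposited table of 60612 genes. Per the file headers the authors' first set of columns holds counts, not normalized, which are estimated counts since about 4 stand for 1 fragment. They are whole numbers, so rounding changed none. The FPKM columns were computed by the authors and list genes without a count at 1e-04, taken as 0 here. The builds hg38 and mm8 and the aligner Bowtie 0.12.2 are named, without a role, per the submitters' processing notes. The counting tool is not given in the sources used here. Coordinates are the deposited ones, on GRCh38: 58394 gene identifiers are in GENCODE 29, and 72.7% have the same start and end there.

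Genes with at least 1 FPKM in at least 3 libraries (12830) were tested with edgeR 4.0.16 (TMM, quasi-likelihood F test, 1 mean per group over 9 libraries, R 4.3.3), 2-sided, with Benjamini-Hochberg adjustment at 0.05 over all genes tested. SE is the log2 fold change over the square root of F. The steps were tested on simulated data, with 50 genes changed at each size between siRNA 1 and control. Of these, 14% were recovered at a log2 change of 0.5, 70% at 1, 90% at 2 and 98% at 3. Far fewer genes changed there than were called here. The members and lists were chosen with earlier results of these data known. Clone and assembly identifiers were left out of the ranking by correlation. Named genes are the members, KMT2C, other family genes past the filter, list genes called with both siRNAs (in a list with none, its gene of smallest adjusted p in each contrast), and the 3 genes of highest correlation per tested member. Genes outside this rule were picked with their values in view, or stand for a list or marker set. Values of 1 list gene and 1 marker are not reported here. Intervals come from fragments (counts over 4). Alternatives changed the scaling, the test (DESeq2 1.42.0, limma 3.58.1), the pseudocount, the filter, the fragment scale, the replicate block and the libraries.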

Additional observations from a re-analysis of the deposited data

Results flagged for a closer look

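Of 41 tested list genes that act with the chemokines, 18 (43.9%) passed edgeR's quasi-likelihood test (Benjamini-Hochberg) in the direct comparison of siRNA 1 with siRNA 2, which tests whether their effects against the shared control differ, near the 39.5% of all genes tested. The genes named here include all of those 18 that are named in the report, and IFNAR1. GRK2 had 47.9, 46.3 and 44.5 FPKM with siRNA 1 and 32.0, 33.0 and 34.2 FPKM with siRNA 2, on either side of 40.2, 39.0 and 37.7 FPKM with control siRNA. The log2 difference was 0.52 ± 0.05 (adjusted p = 1.36e-04), and every siRNA 1 library lay above and every siRNA 2 library below control. GRK3 differed by 0.87 ± 0.09 (adjusted p = 1.13e-04), at 4.58, 5.53 and 5.29 FPKM with siRNA 1 and 2.71, 2.84 and 3.02 FPKM with siRNA 2.

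ADAM17 differed by -1.0 ± 0.10 (adjusted p = 7.96e-05) and DPP4 by -0.73 ± 0.13 (adjusted p = 0.00244), both lower with siRNA 1 than with siRNA 2. ADM differed by -1.16 ± 0.15 (adjusted p = 4.48e-04), having fallen further with siRNA 1. MIF differed by 0.41 ± 0.10 (adjusted p = 0.00873). IFNGR2 differed by 0.78 ± 0.09 (adjusted p = 2.19e-04) and IFNGR1 by 0.56 ± 0.10 (adjusted p = 0.00266), both having fallen further with siRNA 2. IFNAR1, a chain of the type I interferon receptor, differed by 1.2 ± 0.14 (adjusted p = 2.11e-04) and ARRB1 by 0.85 ± 0.19 (adjusted p = 0.00669), both lower with siRNA 2 than with siRNA 1.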

How the results depend on the processing

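ACKR3, CXCL11, CXCL16 and CCL2 kept their direction in all 18 alternatives. ACKR3 ranged from -3.64 to -3.34 with siRNA 1 and from -3.22 to -2.92 with siRNA 2, and CXCL11 from 1.30 to 3.50 and from 0.79 to 2.62, lowest on log2(FPKM + 1), which compresses low genes. On that scale CCL2 had -0.68 with siRNA 2. The difference between siRNAs in CXCL11 ranged from 0.51 to 1.10. The CXCL16 call with siRNA 2 was lost under upper-quartile scaling, without siRNA 2 replicate 1 or 3 and without control replicate 1 or 2. Upper-quartile scaling moved the median of all genes to 0.12 with siRNA 2.

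Without the FPKM filter 2 other family genes were called with each siRNA, and with edgeR's filter on counts 3, against 1: CCR8 with siRNA 1, CXCL3 with siRNA 2, and by the count filter PF4 with siRNA 1 and CCR8 with siRNA 2, beside CCL28. The alternative filters test more low genes. ADAM17 with siRNA 2, at -0.03, became 0.06 under upper-quartile scaling, 0.01 and 0.02 with limma on log2(FPKM + 1) and log2(FPKM + 0.1), and 0.03 without siRNA 2 replicate 2, with leave-one-out values from -0.12 to 0.03. DPP4 with siRNA 1, at -0.10, became 0.00 without siRNA 1 replicate 1, with leave-one-out values from -0.25 to 0.00. None of these passed the test. The cause was not tested.

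Leaving out 1 library at a time gave 4511 to 5082 calls with siRNA 1, 5508 to 6706 with siRNA 2 and 4109 to 4981 between the siRNAs. Same-numbered libraries did not deviate together (correlations -0.07 to 0.04), so no shared effect of the replicate number was seen. Whether same-numbered samples were made together cannot be told from this. With the replicate number as a block the calls were 5007, 6070 and 4766, against 5349, 6328 and 5068 without it. Under 1 FPKM, counting error limits CXCR4, CXCL12, CX3CL1, CXCL8 and CXCL10, and also CCL2 in its libraries under that level.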

Other observations

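Some chemokine family genes under the filter on low values had counts almost wholly in libraries of 1 kind, knockdown or control. They were chosen after their values were seen. PF4, platelet factor 4, had 0.409, 0.532 and 0.955 FPKM with siRNA 1 and 0.0637, 0.0611 and 0 FPKM with siRNA 2, against 0.0703, 0 and 0 FPKM with control siRNA. The siRNA 1 libraries lay above all others, and the ratio to control was 27.9 (95% exact counting interval 4.67 to 1150) on 115 and 4 counts. CCR8, the receptor of CCL1, had 53, 26 and 0 counts with siRNA 1, siRNA 2 and control siRNA. These were 4.21-fold and 1.91-fold a floor of 3 fragments set for the control group. CXCL3, a CXCR2 ligand, had 19, 38 and 0 counts, 1.62-fold and 3.18-fold that floor. These ratios leave out the counting error of the knockdown fragments, 13 and 6 for CCR8 and 5 and 10 for CXCL3. They are therefore not lower bounds of a fold change. CXCL1, its relative, had 23, 23 and 4 counts, with counting intervals of the ratio to control of 0.707 to 268 and 0.695 to 263. Counts leaned to control libraries for CCL20, the CCR6 ligand, with 0, 4 and 17 counts, for CCR9, the receptor of CCL25, with 0, 0 and 12, and for CXCL2 with 0, 0 and 7, too few for a fold change. PF4, CXCL1, CXCL2 and CXCL3 have near-identical copies in the family, so the division of reads among them is uncertain.

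The photoreceptor phosphodiesterase gene PDE6B, on the marker list drawn up because the design text calls the RNA retinal, had 0.654, 0.860 and 0.754 FPKM with siRNA 1 and 0.708, 0.580 and 0.656 FPKM with siRNA 2, against 0.0684, 0.114 and 0.0942 FPKM with control siRNA. It was higher in 6 of 6 knockdown libraries and did not reach the filter for the test.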
